A study of Mus musculus with 6 samples.

Results

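The genes described here are 10 members of the metalloprotease system of osteoclast precursors, out of 24940 genes in the deposited table. They are 5 ADAM proteases (Adam8, Adam9, Adam10, Adam12 and Adam17), 2 matrix metalloproteinases outside the classical osteoclast pair of Mmp9 and Mmp14 (Mmp12 and Mmp19), and 3 tissue inhibitors of metalloproteinases (Timp1, Timp2 and Timp3). They were chosen by gene symbol, and each symbol matched 1 row. The study asked how a methanol leaf extract (LE) of the shrub Abeliophyllum distichum changes gene expression while RANKL, the osteoclast-inducing cytokine, drives bone marrow-derived macrophages (BMMs) toward osteoclasts. M-CSF was present in all cultures (30 ng/mL, 3 days), without RANKL (-R), with RANKL at 100 ng/mL (+R), or with RANKL at 100 ng/mL and LE at 10 μg/mL (R+LE). Each condition had 2 libraries, 6 in all. The sample labels give marrow of C57BL/6 mice aged 6 to 8 weeks, whereas the paper's methods describe male ICR mice. Neither source says whether the 2 libraries of a condition came from separate mice or cultures, so the p-values measure the spread between these libraries, which may be technical.

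ADAM proteases sit in the cell membrane and cut the outer parts of other membrane proteins, a step called shedding. ADAM17 releases TNF and its receptors, ADAM10 cuts Notch receptors and many adhesion molecules, ADAM8 is a leukocyte protease that has been tied to osteoclast formation, and ADAM12 takes part in cell fusion in muscle. MMP12, the macrophage elastase, and MMP19 are secreted enzymes that cut extracellular matrix. TIMPs bind the active site of these enzymes and block it, and TIMP3 also inhibits ADAM17. All of the proteases on the list hold a zinc ion at the active site, and the 7 protease genes all encode the residues that bind it, with codons that differ between some genes. The coding stretch of 33 bases was found in the longest open reading frame of the GENCODE M21 transcript that matches each row of the table. It is shown 5′ to 3′ with the codons of the 3 zinc-binding histidines in capitals, because it separates the proteases from the TIMPs.
Adam8: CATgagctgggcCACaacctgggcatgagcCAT
Adam9: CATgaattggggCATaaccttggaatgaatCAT
Adam10: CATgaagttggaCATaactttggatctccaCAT
Adam12: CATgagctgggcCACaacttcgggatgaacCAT
Adam17: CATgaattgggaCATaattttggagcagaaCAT
Mmp12: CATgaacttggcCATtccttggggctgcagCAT
Mmp19: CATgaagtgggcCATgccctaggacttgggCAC
Each of these 7 reading frames held the site 1 time, and those of Timp1, Timp2 and Timp3 held none. Adam8 and Adam12 shared 29 of the 33 bases, Adam10 and Adam17 shared 26, and Mmp12 and Mmp19 shared 23, below the 24 shared by Adam12 and Mmp12. The fewest identical bases were 19, for Adam8 with Adam10, Adam8 with Adam17, and Adam12 with Mmp19. The sites were found by a shared motif, which fixes part of this identity.

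Whole reads recovered from the table gave between 29390210 and 34846379 mapped reads per library, with 100% of the checked values within 0.05 reads of a whole number after rounding of the table. As a check of the labels, all 8 listed osteoclast markers rose with RANKL and fell with LE. Their summed level was 39.7 to 41.5 RPKM in -R, 1136 to 1379 RPKM in +R and 222.8 to 281.9 RPKM in R+LE. RPKM counts reads per kilobase of transcript, scaled to the mapped reads of the library, so levels can be compared between genes. The 5 macrophage markers summed to 6374 to 6986 RPKM in -R, 2603 to 3347 RPKM in +R and 3627 to 4041 RPKM in R+LE. Lyz2 made up most of it, at 5062 and 5571 RPKM in -R, 2448 and 1815 RPKM in +R, and 3191 and 2929 RPKM in R+LE. With RANKL, 4 of the 5 fell, against 21.5% of all genes, and Itgam did not pass. With LE none of the 5 passed, against 12% of all genes. The log2 fold changes with LE were negative for Cd68 and Csf1r and positive for Adgre1, Itgam and Lyz2. In these bulk samples, fewer cells of a type and less RNA per cell cannot be told apart. Lymphocyte markers summed to at most 1.07 RPKM and mast cell and basophil markers to at most 0.091 RPKM in any library. The 6 endothelial and megakaryocyte markers moved with Adam8 and Mmp12 in their sum, which was 121.9 to 126.1 RPKM in -R, 8.01 to 10.9 RPKM in +R and 13.5 to 19.1 RPKM in R+LE. Most of it was Pf4, a platelet chemokine gene, which fell 15.8-fold with RANKL and rose 2.04-fold with LE (limma adjusted p = 2.09e-10 and 0.00175), whereas Kdr, an endothelial receptor gene, did not pass with RANKL and fell 2.30-fold with LE. The other markers of this list were not tested. Itga2b and Ppbp reached at most 0.07 and 0.533 RPKM in any library, and Cdh5 and Tie1 at most 0.686 and 0.177 RPKM. The part of such cells in the members' values was not tested.

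Levels of the members spanned more than 3 orders of magnitude. In -R the order was Adam8, Adam10, Adam17, Adam9, Timp2, Mmp12, Mmp19, Timp1, Timp3 and Adam12, and no pair of neighbours in that order overlapped between libraries. In +R, Adam17 lay above Adam10 and Mmp12 had dropped from rank 6 to rank 8, where its libraries overlapped those of Timp1. In R+LE, Adam10 and Adam17 overlapped, as did Mmp12 and Mmp19. Reads per library numbered 2 to 48 for the lowest member, Adam12, and 13909 to 60727 for the highest, Adam8.

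**Figure D1:**
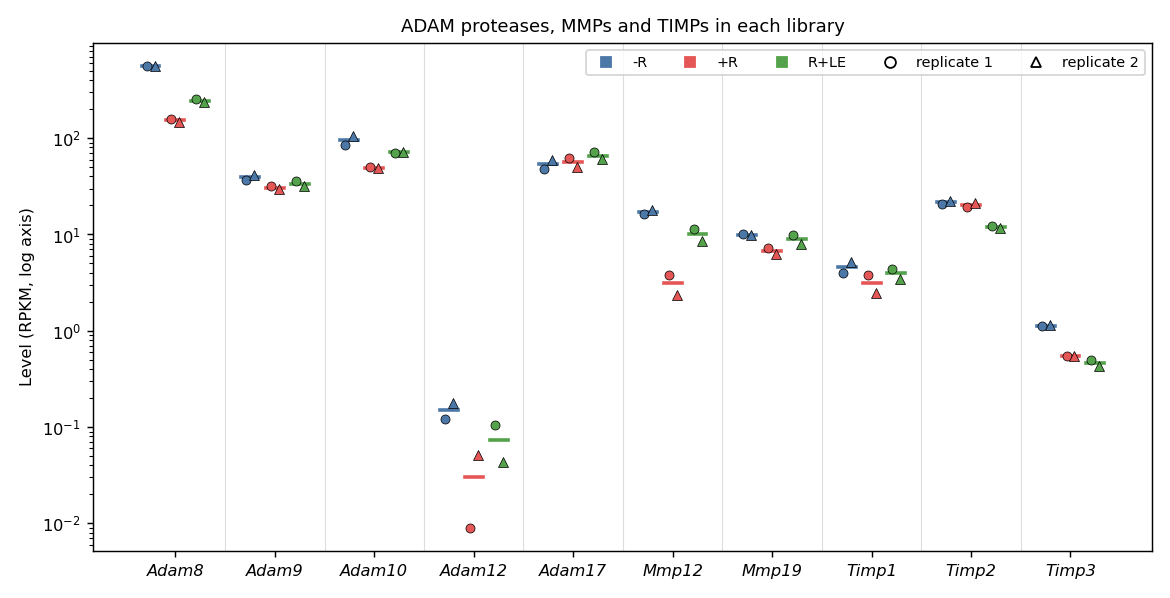
Level of each of the 10 members in RPKM on a log axis, with 1 point per library (circle for replicate 1, triangle for replicate 2) and a bar at the mean of each condition. Adam8 lies highest in every condition, Mmp12 drops in +R and returns in part in R+LE, and Timp2 is lower in R+LE than in the other 4 libraries.

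Compared with -R, RANKL was accompanied by lower levels of most members. A difference was taken to pass at a Benjamini-Hochberg adjusted p below 0.05 in limma, fitted to log2(RPKM + 0.5) over all 11595 genes averaging 0.5 RPKM or more, and was called when it was also at least 2-fold. This filter kept 9 of the 10 members, all but Adam12. Of these 9, 6 fell with RANKL (Adam8, Adam10, Mmp12, Mmp19, Timp1 and Timp3), none rose, and 3 did not pass. Over all genes tested, 45.4% passed, 21.5% downward and 23.9% upward. Mmp12 and Adam8 were called lower, against 8.92% of all genes, and no member was called higher, against 6.58%. The median log2 fold change of the 9 was -0.53, against 0.05 for all genes tested. Among all 10 members, the libraries of 8 lay below both -R libraries in +R, as they did for 35% of the genes tested, and none lay above, against 40.3%. A two-sided exact permutation test on so few libraries cannot go below p = 0.333, so each p rests on the spread that limma shares across genes.

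LE added to RANKL moved fewer members, and in both directions. Between R+LE and +R, 3 of the 9 tested members rose (Mmp12, Adam8 and Adam10), against 5.19% of all genes, and 1 fell (Timp2), against 6.86%. The change of Mmp12 was the 1 member change called upward, against 1.46% of all genes, and no member was called downward, against 1.78% (3.23% in either direction). The median log2 fold change of the members was 0.31, against -0.05 for all genes. Against -R, R+LE was lower for 4 of the 9 (Adam8, Mmp12, Timp2 and Timp3), against 19% of all genes, and higher for none, against 15.3% (34.3% in either direction). Adam8 was called lower, against 6.36%, and no member was called higher, against 3.92% (10.3% in either direction). Both R+LE libraries lay below both -R libraries for 7 of the 10 members, against 34.3% of all genes, and above them for Adam17, against 31.2%. Against +R, they lay above for 4 members (Adam8, Adam10, Mmp12 and Mmp19), against 19.5%, and below for Timp2 and Timp3, against 29.5%. The comparisons share libraries, +R being the control of one and the treated group of the other, and are not independent.

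**Figure D2:**
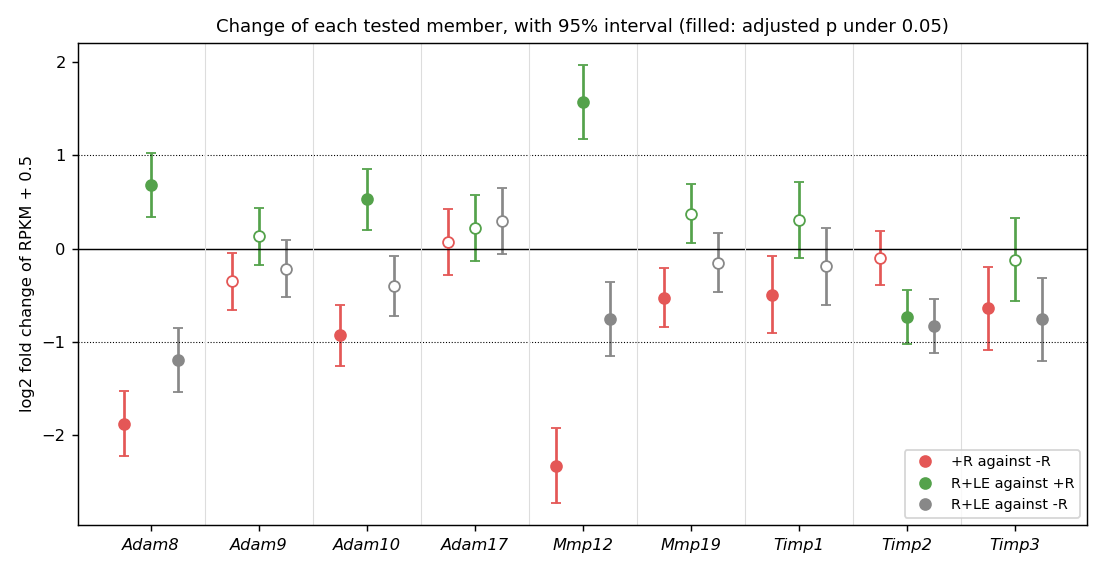
The log2 fold change of RPKM + 0.5 for the 9 tested members in 3 comparisons, with 95% intervals from limma; filled points have an adjusted p below 0.05 and dotted lines mark a 2-fold change. Mmp12 shows the largest fall with RANKL (-2.32) and the largest rise with LE (1.57), while Timp2 is level with RANKL and falls with LE (-0.73).

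Among the 4 ADAM members tested, Adam8 was the most abundant and had the largest fold changes with RANKL and with LE. Adam15, an ADAM gene outside the members, changed more, with log2 fold changes of -2.04 with RANKL and 0.90 with LE. Adam8 lies on chromosome 7 of mm10 from 139978932 to 139992562 on the minus strand. Adam8 was 560.1 and 564.3 RPKM in the -R libraries, 159.6 and 146.7 RPKM in +R, and 255.4 and 236.6 RPKM in R+LE. The 3 conditions did not overlap, with R+LE between the others. With RANKL it fell 3.67-fold, a log2 fold change of -1.87 (standard error 0.16, limma adjusted p = 1.87e-07), and with LE it rose by 0.68 on that scale (adjusted p = 0.0111). R+LE stayed 2.29-fold below -R (log2 fold change -1.19, adjusted p = 3.66e-05 in limma). The rise with LE did not pass with -R replicate 1 left out (adjusted p = 0.0553), nor without -R replicate 2 (0.0555), +R replicate 1 (0.0631) or +R replicate 2 (0.148), where the log2 fold change was between 0.62 and 0.74. In the plane of the RANKL and LE fold changes, the tested genes nearest to Adam8 were Il17ra, an interleukin receptor subunit, at a distance of 0.047 on the log2 scale, and Pou2f2, a transcription factor gene, at 0.054.

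Adam10, on chromosome 9 from 70678982 to 70780229, followed the same course at a smaller size. It was 84.2 and 105.6 RPKM in -R, 49.9 and 48.8 RPKM in +R, and 70.8 and 71.8 RPKM in R+LE. Again no 2 conditions overlapped, and the -R libraries were the furthest apart from each other. RANKL gave a log2 fold change of -0.93 (limma adjusted p = 0.000142) and LE one of 0.53 (limma adjusted p = 0.0338). Without -R replicate 1 the fall reached 2-fold, with a log2 fold change of -1.09. The rise with LE did not pass when any of the libraries of -R or +R was left out, with adjusted p of 0.0669 and 0.0657 without -R replicates 1 and 2, and 0.14 and 0.167 without +R replicates 1 and 2. It also missed with the compared groups fitted alone (adjusted p = 0.063 in limma).

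Adam17, which encodes the TNF-releasing enzyme, did not pass in any comparison. It lies on chromosome 12 from 21323509 to 21373632 and was 47.8 and 59.3 RPKM in -R, 62.6 and 50.3 RPKM in +R, and 71.2 and 60.4 RPKM in R+LE. The libraries of -R and +R overlapped, as did those of +R and R+LE, while both R+LE libraries lay above both -R libraries. The log2 fold change with RANKL was 0.07 with a 95% interval from -0.28 to 0.43 (limma adjusted p = 0.74). For LE it was 0.22 with an interval from -0.13 to 0.58 (adjusted p = 0.49). The interval for RANKL does not reach a 2-fold change in either direction. Exons of Adam17 share 311 bp with those of Iah1 on the opposite strand, and the authors' counting did not use strand, so reads there cannot be assigned to a gene.

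Adam9, a widely expressed membrane protease (chromosome 8, from 24949611 to 25016922), was 36.8 and 41.5 RPKM in -R, 31.8 and 29.3 RPKM in +R, and 35.8 and 31.5 RPKM in R+LE. Both +R libraries lay below both -R libraries, and R+LE overlapped +R. The log2 fold change with RANKL was -0.35 (95% interval from -0.66 to -0.04, adjusted p = 0.0583 in limma). With each library left out in turn it ranged from -0.44 to -0.26. The fall passed with the compared groups fitted alone (adjusted p = 0.0243 in limma). With LE the log2 fold change was 0.13 (interval from -0.17 to 0.44, adjusted p = 0.669). Adam12, on chromosome 7 from 133883199 to 134225097, had 27 and 48 reads in -R, 2 and 12 reads in +R, and 25 and 10 reads in R+LE, over a transcript of 7650 nt. Both +R libraries were below both -R libraries and the R+LE libraries overlapped +R. The gene lay below the filter. When every detected gene was tested, its log2 fold change with RANKL was -0.29 (adjusted p = 0.0491 in limma over 18427 genes), on a scale that compresses levels this low.

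Mmp12 gave the clearest response among the members. It is on chromosome 9 from 7347374 to 7360461, plus strand, and was 16.5 and 17.8 RPKM in -R, 3.82 and 2.37 RPKM in +R, and 11.5 and 8.61 RPKM in R+LE. The conditions did not overlap, and the gene held 262 to 2232 reads per library. It fell 5.01-fold with RANKL, a log2 fold change of -2.32 (standard error 0.19, limma adjusted p = 8.39e-08). It rose 2.97-fold with LE, a log2 fold change of 1.57 (standard error 0.19, limma adjusted p = 4.35e-05). In fits that lacked any 1 library, the change with LE stayed between 1.28 and 1.87. R+LE remained below -R (log2 fold change -0.75, adjusted p = 0.00571 in limma), which did not pass without -R replicate 2 (-0.70, adjusted p = 0.0794) or without R+LE replicate 2 (-0.55, adjusted p = 0.0507). The tested genes with the nearest pair of fold changes were Mir223, a myeloid microRNA gene, at a distance of 0.13, and Slpi, a secreted inhibitor of serine proteases, at 0.21.

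Mmp19, on chromosome 10 from 128790910 to 128800827, changed less. It was 10.1 and 9.78 RPKM in -R, 7.30 and 6.25 RPKM in +R, and 9.97 and 7.97 RPKM in R+LE. Both +R libraries lay below the other 4, and R+LE overlapped -R. RANKL gave a log2 fold change of -0.53 (limma adjusted p = 0.00904) and LE one of 0.38 (95% interval from 0.06 to 0.69, adjusted p = 0.129). The fall with RANKL did not pass without -R replicate 1 (-0.50, adjusted p = 0.0702) or without +R replicate 2 (-0.42, adjusted p = 0.0871). Mmp19 shares 789 bp of exon with Tmem198b on the opposite strand, and that gene also fell with RANKL, by 0.76 on the log2 scale (adjusted p = 0.00131 in limma). The part of its reads in the value of Mmp19 was not tested.

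Mmp12 sits in a cluster of MMP genes, and its neighbours were examined because of their position. On mm10, 10 MMP genes and 1 other gene lie within 427.1 kb of chromosome 9, from 7272514 to 7699585. Of these 11 genes, 4 passed the filter and were called lower with RANKL. Mmp13 and Mmp27 passed it only through the -R libraries, where they were high, and the fall of Mmp12 was known, so nothing is read from that count. Mmp13, a collagenase gene, was 3.45 and 4.03 RPKM in -R, 0.294 and 0.245 RPKM in +R, and 0.50 and 0.419 RPKM in R+LE. Mmp8, the neutrophil collagenase gene, was 2.24 and 3.64 RPKM in -R, 0.454 and 0.24 RPKM in +R, and 2.40 and 1.78 RPKM in R+LE. Mmp27 was 1.11 and 1.12 RPKM in -R, 0.092 and 0.215 RPKM in +R, and 0.388 and 0.124 RPKM in R+LE. The +R libraries of all 4 genes were below their -R libraries, whereas in R+LE Mmp12, Mmp8 and Mmp13 lay above +R and Mmp27 overlapped +R. The log2 fold changes with RANKL were -2.46 for Mmp13 and -1.31 for Mmp27, and Mmp8 fell 4.01-fold, with limma adjusted p of 8.42e-08, 0.000568 and 3.47e-06. With LE, Mmp8 rose by 1.61 (adjusted p = 0.000219 in limma), while Mmp13 had a change of 0.32 (adjusted p = 0.384) and Mmp27 of 0.19 (adjusted p = 0.738). The differences between genes in the response to LE were not tested. Of the 7 cluster genes below the filter, 6 showed 3 reads or fewer per library, and 4 of those had none.

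The summed level of the neutrophil markers was lower with RANKL, as were the levels of Mmp12 and Mmp8. The 8 of them summed to 15.6 to 17.5 RPKM in -R, 0.716 to 0.816 RPKM in +R and 0.592 to 2.53 RPKM in R+LE, most of it from S100a8 and S100a9. The 2 that were tested, S100a8 and S100a9, fell with RANKL, against 21.5% of all genes, and with LE neither passed, against 12%. S100a8 had a log2 fold change of 0.61 with LE, its R+LE libraries being 2.456 and 0.509 RPKM, and S100a9 was listed at 0 in +R and in R+LE. S100a9 thus passed the filter only through the -R libraries, where it was high, so nothing is read from its fall. Mpo and Elane, which define immature neutrophils, were at 0.143 RPKM or below. Elane went the other way with RANKL, at 0 RPKM in both -R libraries and 0.071 and 0.143 RPKM in +R, on no more than 4 reads. The part of such cells in the Mmp8 and Mmp12 values was not tested.

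**Figure D3:**
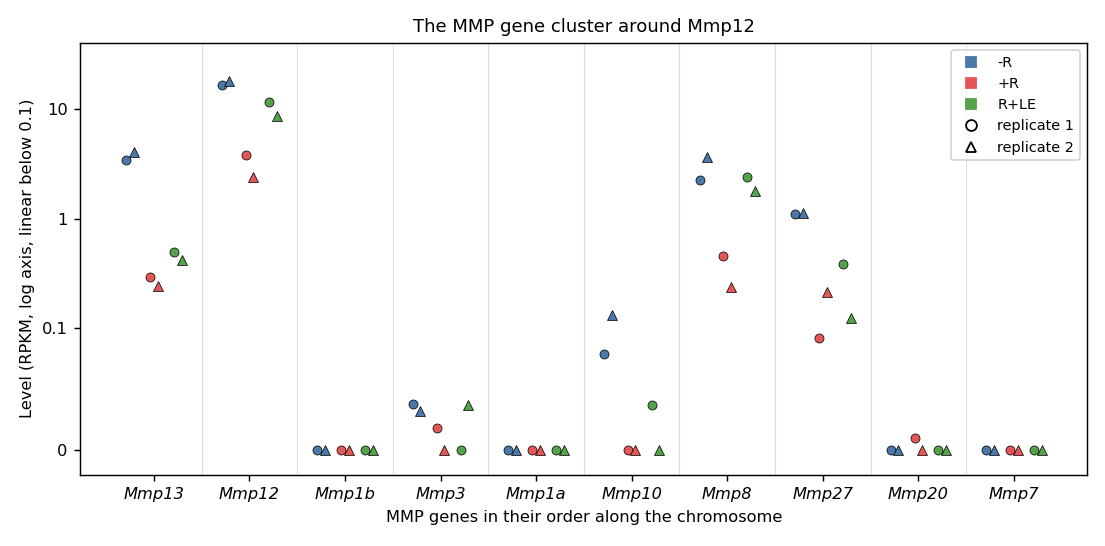
Level in RPKM of the 10 MMP genes of the cluster, in their order along the chromosome, on an axis that is linear below 0.1 RPKM and logarithmic above, with 1 point per library. Mmp13, Mmp12, Mmp8 and Mmp27 are detected in -R and lower in +R, and Mmp12 and Mmp8 rise again in R+LE.

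The TIMPs did not move as a group. Timp2, the most abundant of the 3 in each condition, lies on chromosome 11 from 118301061 to 118355411. It was 20.9 and 22.1 RPKM in -R, 19.1 and 21.1 RPKM in +R, and 12.3 and 11.5 RPKM in R+LE. The -R and +R libraries overlapped, and both R+LE libraries were below the other 4. The log2 fold change with RANKL was -0.10 (95% interval from -0.39 to 0.19, adjusted p = 0.587 in limma). With LE it fell by 0.73 on the log2 scale, or 1.66-fold (standard error 0.14, adjusted p = 0.00207 in limma), and R+LE was also below -R (log2 fold change -0.83, adjusted p = 0.000213). The fall with LE passed in all 17 alternatives tried, with log2 fold changes from -0.80 to -0.66. Unlike Adam8, Adam10 and Mmp12, Timp2 thus had a level in R+LE outside the range spanned by -R and +R.

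Timp3, which encodes an inhibitor bound to the extracellular matrix, is on chromosome 10 from 86300412 to 86349505. It was 1.12 and 1.14 RPKM in -R, 0.551 and 0.543 RPKM in +R, and 0.502 and 0.429 RPKM in R+LE. Both -R libraries lay above the other 4. The log2 fold change came to -0.64 with RANKL (limma adjusted p = 0.0208), -0.12 with LE (95% interval from -0.56 to 0.33, adjusted p = 0.822) and -0.76 for R+LE against -R (adjusted p = 0.0111). On the recovered reads, where no pseudocount in RPKM is added, limma's voom gave log2 fold changes of -1.04 with RANKL and -1.28 for R+LE against -R, both past 2-fold. The fall with RANKL did not pass without -R replicate 1 or 2 (adjusted p = 0.0848 and 0.0864) or without +R replicate 1 or 2 (0.0734 and 0.0782), and that of R+LE against -R did not pass without -R replicate 1 or 2 (0.065 and 0.0655). Timp1, on the X chromosome from 20870166 to 20874737, was 3.99 and 5.13 RPKM in -R, 3.82 and 2.44 RPKM in +R, and 4.396 and 3.47 RPKM in R+LE. The +R libraries were below those of -R, and R+LE overlapped both. Its log2 fold change with RANKL was -0.49 (adjusted p = 0.0478 in limma), and 9 of the 17 alternatives did not pass, among them those without -R replicate 1 (-0.66, adjusted p = 0.0645), without -R replicate 2 (-0.33, 0.325) and without +R replicate 2 (-0.22, 0.442). With LE it was 0.31 (95% interval from -0.10 to 0.72, adjusted p = 0.388 in limma).

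Summed over the 3 genes, the TIMPs were 26.0 and 28.4 RPKM in -R, 23.5 and 24.1 RPKM in +R, and 17.2 and 15.4 RPKM in R+LE. The 5 ADAM members summed to 729.0 and 770.9 RPKM in -R, 304.0 and 275.1 RPKM in +R, and 433.2 and 400.2 RPKM in R+LE, most of it Adam8. The ADAM sum was thus lowest in +R and the TIMP sum lowest in R+LE. Timp1 and Timp3 are each nested, on the opposite strand, inside a synapsin gene. Timp1 shares no exon with Syn1, which fell with RANKL by 1.73 on the log2 scale (adjusted p = 2.12e-07 in limma). Exons of Timp3 share 1733 bp with Syn3, which was at most 0.216 RPKM in any library.

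Stromal cells are a known source of TIMPs, and of their 12 markers 3 were tested. Of these 3, 2 fell with LE, against 6.86% of all genes. The 12 stromal and osteoblast markers summed to 15.5 to 17.2 RPKM in -R, 11.2 to 15.2 RPKM in +R and 8.27 to 9.09 RPKM in R+LE, nearly all of it from the collagen genes Col1a1, Col1a2 and Col3a1. With LE, Col3a1 fell by 0.76 on the log2 scale (limma adjusted p = 0.0133) and Col1a2 by 0.53 (adjusted p = 0.0312), while Col1a1 had a change of -0.45 and did not pass (adjusted p = 0.174). The defining stromal markers Dcn and Lum reached no more than 10 and 4 reads, and Pdgfra no more than 0.096 RPKM. Pdgfrb was 0.538 and 0.49 RPKM in +R and 0.488 and 0.372 RPKM in R+LE, and Sp7 overlapped between them. The part of stromal RNA in the Timp2 value was not tested.

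Start regions were compared for the members that LE moved, because Mmp12 and Timp2 went in opposite directions. RefSeq start regions on GRCm38.p6, from 250 bases before to 50 bases after the start, were given for 7 members and not for Adam9, Adam12 or Mmp19. They are printed for Mmp12 (chr9:7347124-7347423, plus strand), Timp2 (chr11:118355362-118355661, minus strand) and Adam8 (chr7:139992513-139992812, minus strand), 5′ to 3′, with matched motifs in capitals. The motifs searched on both strands were the AP-1 site TGANTCA, the core of the antioxidant response element TGACNNNGC, the E-box CACGTG, the PU.1 site GAGGAA and the NFAT site TGGAAA.
Mmp12: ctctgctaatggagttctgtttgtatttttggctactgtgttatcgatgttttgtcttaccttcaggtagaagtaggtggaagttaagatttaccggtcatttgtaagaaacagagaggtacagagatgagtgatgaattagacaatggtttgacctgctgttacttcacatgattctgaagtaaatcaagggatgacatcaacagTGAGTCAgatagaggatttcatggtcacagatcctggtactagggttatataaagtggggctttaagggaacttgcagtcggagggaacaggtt
Timp2: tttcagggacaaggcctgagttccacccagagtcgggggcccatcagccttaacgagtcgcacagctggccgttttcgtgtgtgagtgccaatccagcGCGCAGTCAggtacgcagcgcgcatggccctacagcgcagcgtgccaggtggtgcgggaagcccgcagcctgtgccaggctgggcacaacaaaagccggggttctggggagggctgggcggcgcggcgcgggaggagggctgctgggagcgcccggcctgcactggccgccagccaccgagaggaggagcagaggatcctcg
Adam8: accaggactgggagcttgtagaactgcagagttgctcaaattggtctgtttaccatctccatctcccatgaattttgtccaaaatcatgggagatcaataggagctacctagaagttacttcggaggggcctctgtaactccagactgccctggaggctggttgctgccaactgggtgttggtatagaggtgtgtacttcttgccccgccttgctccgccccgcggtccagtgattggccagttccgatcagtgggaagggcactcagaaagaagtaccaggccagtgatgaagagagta
The region of Mmp12 held 1 AP-1 match, beginning at position -44 from the start, which 7.81% of all 32851 start regions hold. That of Timp2 held 1 match to the antioxidant core at -152, which 12.4% hold, and that of Adam8 held no match. A second start region of Mmp12, further upstream, held 1 PU.1 match, a motif found in 28.3% of regions. The region of Adam10 held 1 E-box (7.15% of regions) and 1 PU.1 match, and no motif was matched for Adam17, Timp1 or Timp3. The NFAT letters, present in 21.4% of regions, were in no member's region. GC content was 40.7% for Mmp12, 68.7% for Timp2 and 52.3% for Adam8, against a median of 52.7% over all regions.

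In the wider protease system, the other MMPs changed in both directions with RANKL. Of the 21 listed, 6 were tested, and 2 were called higher (Mmp9 and Mmp14), against 6.58% of all genes. Another 3 were called lower, against 8.92%, all in the cluster described above, and 1 did not pass. Of the 3 called lower, Mmp13 and Mmp27 passed the filter only through the -R libraries, so nothing is read from that count. Mmp14, which encodes a membrane-anchored collagenase, was 1.90 and 1.41 RPKM in -R, 60.9 and 59.3 RPKM in +R, and 9.61 and 11.02 RPKM in R+LE. With LE, Mmp9 and Mmp14 fell by 2.75 and 2.49 on the log2 scale, opposite in sign to Mmp12 and Mmp8. Of 8 other ADAM genes, Adam15 alone passed the filter. It was 162.9 and 134.0 RPKM in -R, 35.7 and 35.5 RPKM in +R, and 66.8 and 67.2 RPKM in R+LE. It fell by 2.04 on the log2 scale with RANKL (limma adjusted p = 3.03e-08) and rose by 0.90 with LE (adjusted p = 0.000808). These fold changes had the same signs as those of Adam8 and were larger, but the difference between the genes was not tested. Of 19 ADAMTS genes, which encode secreted relatives of the ADAMs, Adamts10 was the 1 tested, and it fell with RANKL by 0.76 on the log2 scale (adjusted p = 0.00296 in limma). Of 5 other inhibitors, Cst3 was the 1 tested, and it did not pass in either comparison.

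Genes for the partners that carry ADAM10 and ADAM17 to the cell surface changed in both directions. Of the 9 listed, 7 were tested, and with RANKL 2 rose and 3 fell, against 23.9% and 21.5% of all genes. Rhbdf2, an iRhom gene needed for ADAM17 maturation in immune cells, was called lower (log2 fold change -1.15, limma adjusted p = 6.18e-06), and its relative Rhbdf1 was called higher (1.10, adjusted p = 0.000567). With LE, 1 of the 7 passed, against 12% of all genes, the tetraspanin gene Tspan33 (-0.86, adjusted p = 0.0109 in limma). Among 11 genes for proprotein convertases and the plasminogen system, which include activators of MMP precursors and their inhibitors, 6 were tested. With RANKL 3 were called lower, against 8.92% of all genes, and 1 higher, against 6.58%. The 1 called higher was Serpine2, a serine protease inhibitor gene, at 0.067 and 0.253 RPKM in -R, 1.32 and 0.829 RPKM in +R, and 0.279 and 0.482 RPKM in R+LE. Serpine2 passed the filter only through the +R libraries, where it was high, so nothing is read from its call. Plau, the urokinase gene, was 102.4 and 118.5 RPKM in -R, 15.0 and 10.2 RPKM in +R, and 9.83 and 8.89 RPKM in R+LE. It fell by 3.10 on the log2 scale with RANKL and did not pass with LE. The urokinase receptor gene Plaur fell with RANKL (log2 fold change -1.32, limma adjusted p = 1.16e-05) and rose with LE (0.97, adjusted p = 0.00116).

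Genes for membrane proteins that ADAM10 and ADAM17 cut were mostly lower in RNA with RANKL too, and protein was not measured here. Of 20 listed, 16 were tested, 11 fell, 1 rose and 4 did not pass, with a median log2 fold change of -0.78. Over all genes, 21.5% passed downward and 23.9% upward, and the median was 0.05. Of the 16, 7 were called lower, against 8.92% of all genes, with the largest falls in Notch1 (-2.88), Mertk (-2.61), Tnfrsf1b (-1.96) and Trem2 (-1.94). Cd163, also called lower, was 1.93 and 2.29 RPKM in -R, 0.252 and 0.334 RPKM in +R, and 0.469 and 0.726 RPKM in R+LE. Cd163 passed the filter only through the -R libraries, where it was high, so nothing is read from its fall. Notch1 was 9.28 and 10.2 RPKM in -R, 0.768 and 1.01 RPKM in +R, and 2.52 and 3.07 RPKM in R+LE, with no overlap between conditions. With LE, 7 of the 16 rose, against 5.19% of all genes, and none fell, against 6.86%. Notch1 was the 1 called higher, against 1.46% (log2 fold change 1.25, adjusted p = 0.000108 in limma). Tnf, the best known substrate of ADAM17, was 6.28 and 5.33 RPKM in -R, 2.79 and 1.88 RPKM in +R, and 4.25 and 4.67 RPKM in R+LE.

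**Figure D4:**
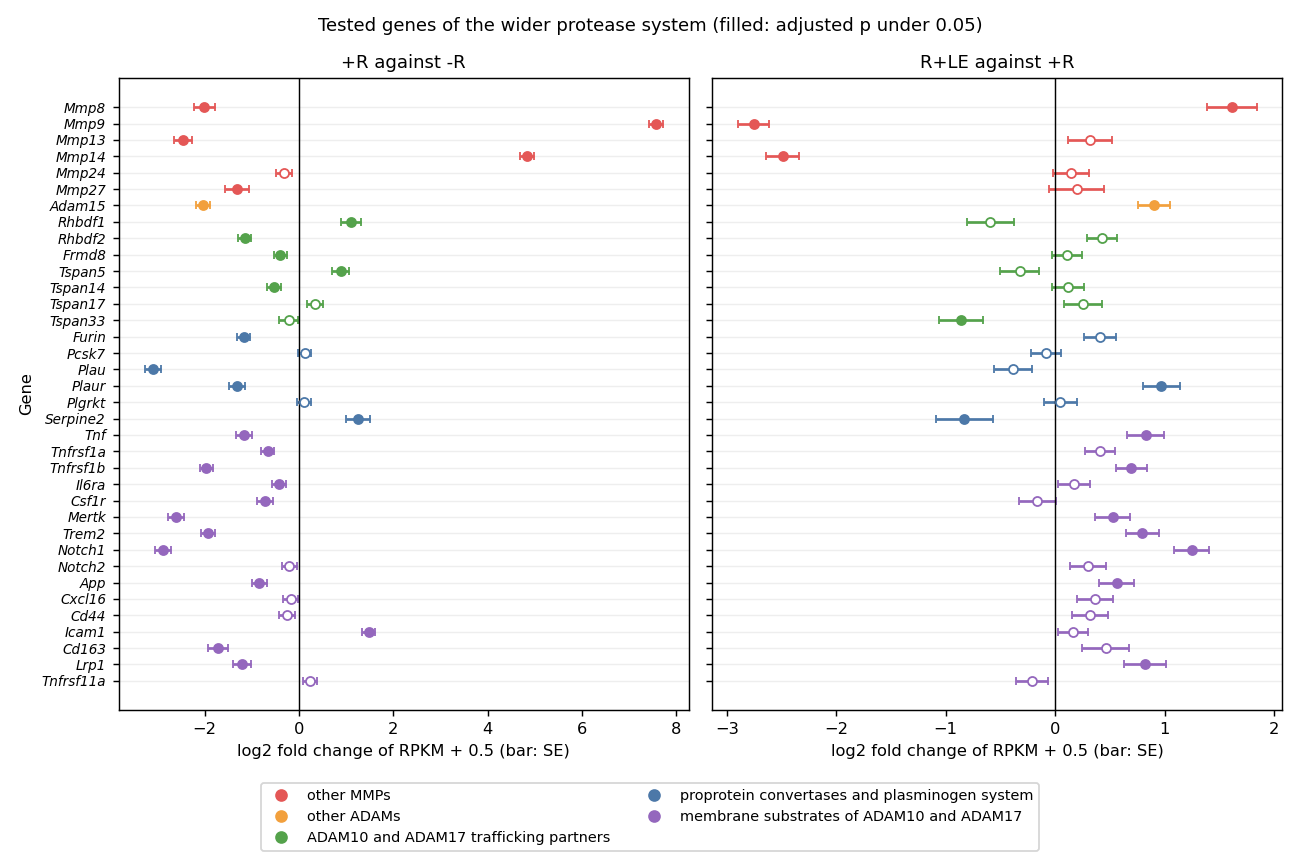
The log2 fold change of RPKM + 0.5 with its standard error for the tested genes of 5 lists, for +R against -R on the left and R+LE against +R on the right, with filled points for an adjusted p below 0.05. Mmp9 and Mmp14 rise with RANKL and fall with LE, while 11 of the 16 substrate genes fall with RANKL and 7 rise with LE.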

How the data were processed

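The authors aligned reads to mm10 (TopHat in the paper's methods, with HISAT2 and DESeq2 also named in the submitters' processing notes), counted them on exons of both strands with HOMER and deposited the values as RPKM, under column titles that say FPKM. The transcript length column of the table, in nt, was used with RPKM to recover whole reads and depth. The 0.05 reads are the tolerance for a whole number, beyond the rounding of the table, and do not measure counting error. Of the symbols, 26 had become dates and all 26 were restored. limma 3.58.1 in R 4.3.3 fitted log2(RPKM + 0.5) for the 3 group means over all 6 libraries with moderated variances that follow a trend, on genes averaging 0.5 RPKM or more, and was tested on simulated data. The tables were read with pandas 2.3.3 and numpy 2.4.6 and plotted with matplotlib 3.10.9, under Python 3.11.15. The members and the lists were chosen with earlier results of these data known. All 10 members are named, with, for each other list and comparison, at most the 4 largest called changes, the marker levels, and the 2 genes nearest to each called member in the pair of fold changes. Any other gene (such as Mmp27, Adamts10, Cst3, Tspan33, Tnf, Syn1, Syn3, Tmem198b and Iah1) was chosen after its values were seen. Overlaps and coding letters came from GENCODE M21, which is on the same build, and start regions from RefSeq. A gene taken out of the wider lists is not reported here, and list members that the text does not name enter its counts only.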

Additional observations from a re-analysis of the deposited data

How the results depend on the processing

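Alternatives were pseudocounts of 0.1 and 1, no filter or a mean of at least 1 RPKM, no variance trend, the compared groups alone, median centring, quantile normalization, a replicate block, voom on recovered reads, each library left out, and, added after seeing the data, Rn45s left out of the depth. The members called were 2 with RANKL, 1 with LE and 1 for R+LE against -R. The count with RANKL became 3 with voom, and the last count became 2 with a pseudocount of 0.1 and 2 with voom, as Timp3 passed 2-fold. With libraries left out, the counts ranged from 2 to 3 with RANKL and were 1 in the other comparisons. The sign changed for Adam17 with RANKL, which ranged from -0.0828 (without +R replicate 1, and -0.0787 without -R replicate 1) to 0.23, and for Mmp19 in R+LE against -R, from -0.30 to 0.0018 (without R+LE replicate 2). All other signs held, and 449 of 456 member values kept direction and 2-fold call, but 44 crossed the adjusted p threshold of 0.05, in 11 of 27 member comparisons. Without the filter, Adam8 and Adam10 with LE, Mmp12 in R+LE against -R and Timp1 with RANKL no longer passed (limma adjusted p = 0.0609, 0.104, 0.0918 and 0.211). Mmp19 with LE passed with median centring and quantile normalization (0.0467 and 0.0408). Deviations of same-numbered libraries from their group means correlated at -0.05 (-R with +R), 0.11 (-R with R+LE) and 0.25 (+R with R+LE). With 2 libraries per condition, these values cannot tell whether replicate numbers pair the libraries. With the replicate block, the members called were 2, 1 and 1, and the counts over all genes went from 1797 to 1801, 375 to 389 and 1192 to 1200. Adam9 with RANKL (adjusted p = 0.0419) and Adam10 in R+LE against -R (adjusted p = 0.0297) passed in limma with the block. Depth limits Adam12, with 2 to 48 reads.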

Other observations

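Some metalloprotease genes lay below the filter on low values and were not tested, and are given here as read counts because their libraries stood apart. They were chosen after their values were seen. Adam33 had 87 and 135 reads in -R, 4 and 3 reads in +R, and 3 and 29 reads in R+LE, so the R+LE libraries differed from each other more than from +R. Reck, which encodes a membrane-anchored MMP inhibitor, had 47 and 35 reads in -R, 2 and 4 reads in +R, and 16 and 7 reads in R+LE, with no overlap between conditions. Adamts4, an aggrecanase gene, went the other way, with 9 and 14 reads in -R, 78 and 51 reads in +R, and 28 and 39 reads in R+LE. Adamts14, which encodes a procollagen-processing protease, had 9 and 12 reads in -R, 84 and 53 reads in +R, and 16 and 36 reads in R+LE. In both ADAMTS genes the R+LE libraries lay between those of the other conditions.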
